A study of Homo sapiens with 4 samples.

Results

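The genes described here are 34 interferon-stimulated genes, of a list of 35 symbols, read on expression arrays of gastric cancer cells with and without PRMT6. The other one was not analysed here. Each gene is represented by its brightest probe set among those annotated to that gene alone, and the 34 stand among 19775 genes measured in the same way. The members were taken by symbol, not by a measured value, though the list was chosen with earlier results of these data known.

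All cells were of the AGS line, which derives from a human gastric adenocarcinoma, and formed 2 groups: PRMT6-KO cells (2 arrays) and control cells with wild-type PRMT6 (2 arrays). PRMT6 is an arginine methyltransferase that modifies histone H3, and the knockout was made with a single guide in a lentiviral vector that carries Cas9. Puromycin was used to select infected cells, from which knockout clones were grown by limiting dilution, so a difference between the groups may belong to a clone. The labels do not say which clone each knockout array holds, whether the control cells carried a vector or were cloned, or whether the arrays of a group came from separate cultures. The p-values below therefore measure only the spread between these arrays, which may be technical.

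Interferon-stimulated genes are switched on when type I or type III interferon binds its receptor at the cell surface. The receptor-bound kinases JAK1 and TYK2 then activate a transcription factor complex named ISGF3, whose DNA-binding subunit is IRF9. ISGF3 binds a short element near the target genes, the interferon-stimulated response element, which holds paired GAAA blocks. The products sense viral RNA, degrade it, block its translation, hinder the entry or release of virus particles, or feed back on the pathway itself, and many are also transcribed at a low level without infection, as in epithelial tumour lines.

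The response element is shown first because members that rose and members that fell both carry its letters close to their start. In promoter windows from RefSeq (GRCh38.p14, 250 bases before to 50 after each annotated start), 28 of the 34 members had at least 1 window. IFIT2, MX2, OAS2, OASL, IRF7 and USP18 had none in the table. The letters GAAA, NN and GAAA in a row, where N is any base, were searched on both strands. They occurred in 20 of the 28 members (71.4%), against 4.38% of all 27305 genes in the promoter table. The members are listed as interferon targets, so this share describes the list and not the PRMT6-KO cells. Among all array genes with a window, the letters occurred in 3.74% that rose, 4.53% that fell and 3.94% that did not pass the test. Of the members with a window, a match was found for 4 of 4 that rose in PRMT6-KO cells. It was found for 7 of 10 that fell and 9 of 14 that did not pass the test. MX2, which also rose, had no window. No match was found in the windows of IFI35, OAS1, IRF9, RIGI, HERC6, SAMD9L, XAF1 and CMPK2, which says only that these letters are not in those windows.

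The stretches below hold the match nearest the start in the 4 risen members with a window and in 4 fallen members. Those 4 fallen members had the largest change among the fallen ones with a match. Each is written 5′ to 3′ along the gene's own strand, and capitals mark the match. Where the capitals begin with TTTC, the match lies on the opposite strand.
SAMD9: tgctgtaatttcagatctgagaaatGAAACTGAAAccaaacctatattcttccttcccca
PARP9: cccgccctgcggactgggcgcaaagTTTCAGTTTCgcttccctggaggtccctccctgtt
IFIT3: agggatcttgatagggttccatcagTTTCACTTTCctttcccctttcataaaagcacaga
IFIT1: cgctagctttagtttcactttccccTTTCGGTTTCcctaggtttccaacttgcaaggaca
RSAD2: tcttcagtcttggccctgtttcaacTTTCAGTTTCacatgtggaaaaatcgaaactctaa
ISG20: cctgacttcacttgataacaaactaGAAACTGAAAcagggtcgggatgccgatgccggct
BST2: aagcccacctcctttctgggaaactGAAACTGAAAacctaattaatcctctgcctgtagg
IFI27: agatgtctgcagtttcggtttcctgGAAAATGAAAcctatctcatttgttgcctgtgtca
The same 10 letters, GAAACTGAAA, stood before SAMD9, which rose, and before ISG20 and BST2, which fell. Read on its other strand, the match of RSAD2, which fell, and that of PARP9, which rose, are the same letters too.

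In GRCh38.p14 coordinates the stretch of SAMD9 is chr7:93118081-93118140 on the minus strand and that of PARP9 is chr3:122564307-122564366 on the minus strand. The stretch of IFIT3 is chr10:89332453-89332512 and that of IFIT1 chr10:89392495-89392554, both on the plus strand. Those of RSAD2 (chr2:6877607-6877666), ISG20 (chr15:88638922-88638981) and IFI27 (chr14:94110616-94110675) are on the plus strand, and that of BST2 (chr19:17405720-17405779) is on the minus strand. The PARP9 stretch is at the same time the start region of DTX3L, its neighbour on the plus strand. The same match of these letters thus lies in windows of both genes, and whether it acts on either was not tested.

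In PRMT6-KO cells the interferon-stimulated genes did not move as a block. Of the 34 members, 10 fell (RSAD2, ISG20, OAS1, BST2, IFI35, IFI27, IFITM1, IFI6, DDX60 and IRF9), 5 rose (IFIT1, IFIT3, MX2, PARP9 and SAMD9) and 19 did not pass the test. RSAD2 was 2.38-fold lower, and it was the only member past the test with a change of 2-fold or more. The test was limma on log2 intensities with Benjamini-Hochberg adjustment over all 19775 genes, called at an adjusted p below 0.05. Among all genes it called 24.0%, with 12.4% rising and 11.5% falling. The members that rose were 14.7% of the 34 and those that fell 29.4%, so the share that rose lay near that of all genes. A called fall of 2-fold or more was found in 2.16% of all genes and a called rise of that size in 1.30%. With either PRMT6-KO array left out, RSAD2 alone among the 15 called members kept its call. IFITM1, MX2 and IRF9 also lost theirs without either control array, BST2 without control 1 and SAMD9 without control 2. The median member changed by 0.02 on the log2 scale, against -0.01 for the median of all genes, while the median size of change without regard to sign was 0.27 for members and 0.16 for all genes.

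Both PRMT6-KO arrays lay above both control arrays for 12 members and below them for 14. Among all genes these patterns held for 29.1% each, or 58.2% together. Within a group the arrays of a member lay close together: the median gap was 0.07 between the PRMT6-KO arrays and 0.12 between the control arrays on the log2 scale, beside 0.09 and 0.11 over all genes. The difference between groups exceeded both gaps for 24 members (70.6%) and for 49.8% of all genes. Every difference here is relative to the other transcripts on the array, because the deposited values were normalized to nearly equal distributions, and fewer cells expressing a gene cannot be told apart from less RNA per cell.

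**Figure D1:**
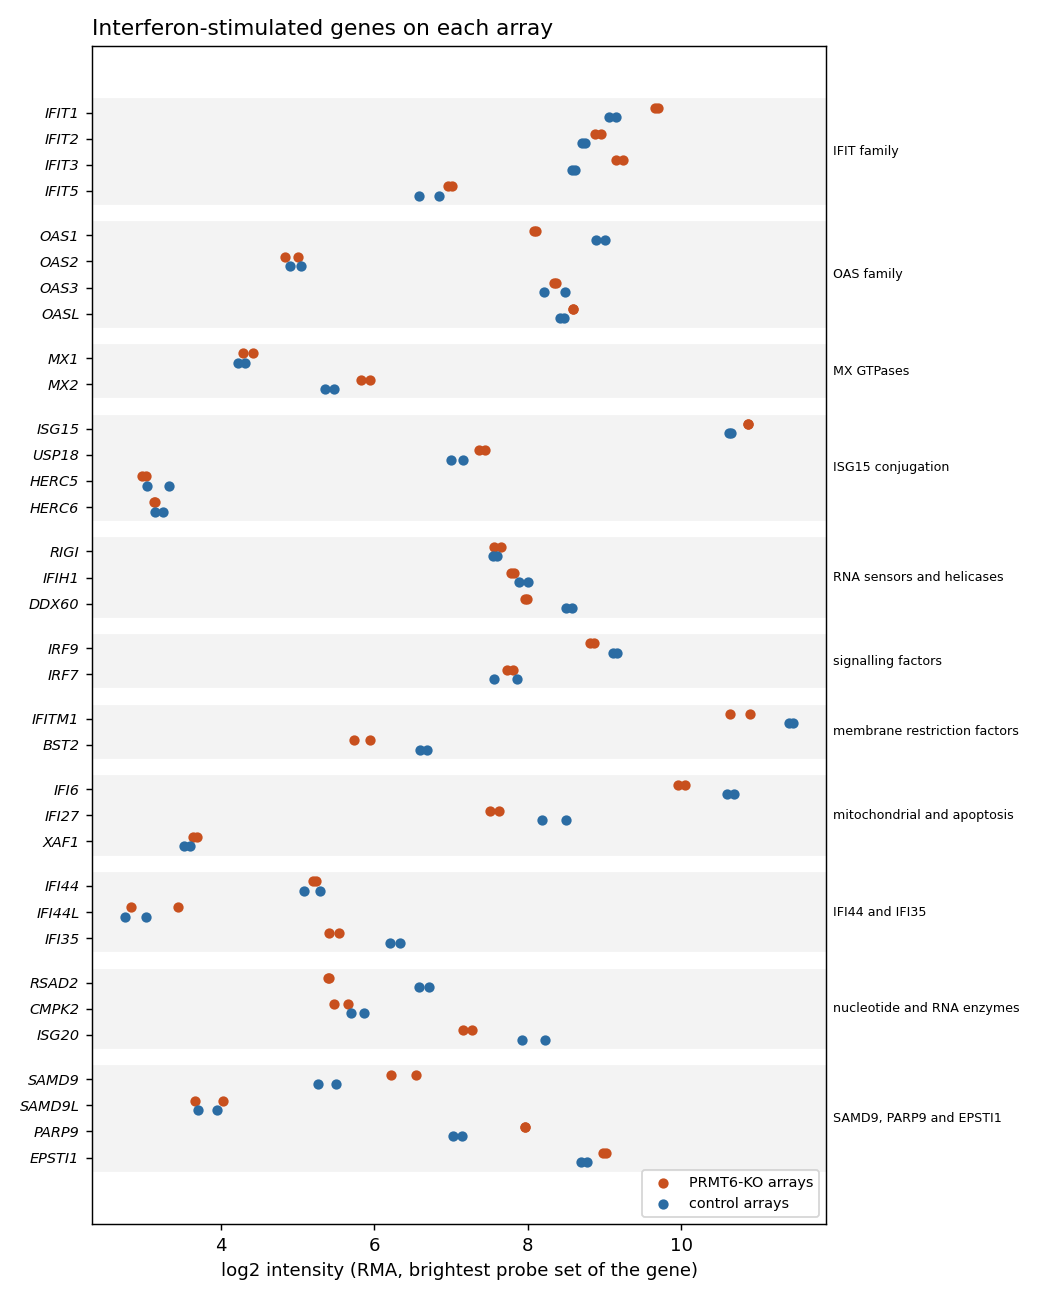
Log2 intensity of the 34 members on each array, grouped by role, with PRMT6-KO arrays drawn above control arrays in each row. RSAD2, OAS1, ISG20 and BST2 sit to the left in both PRMT6-KO arrays, and SAMD9, PARP9, IFIT1 and IFIT3 to the right.

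**Figure D2:**
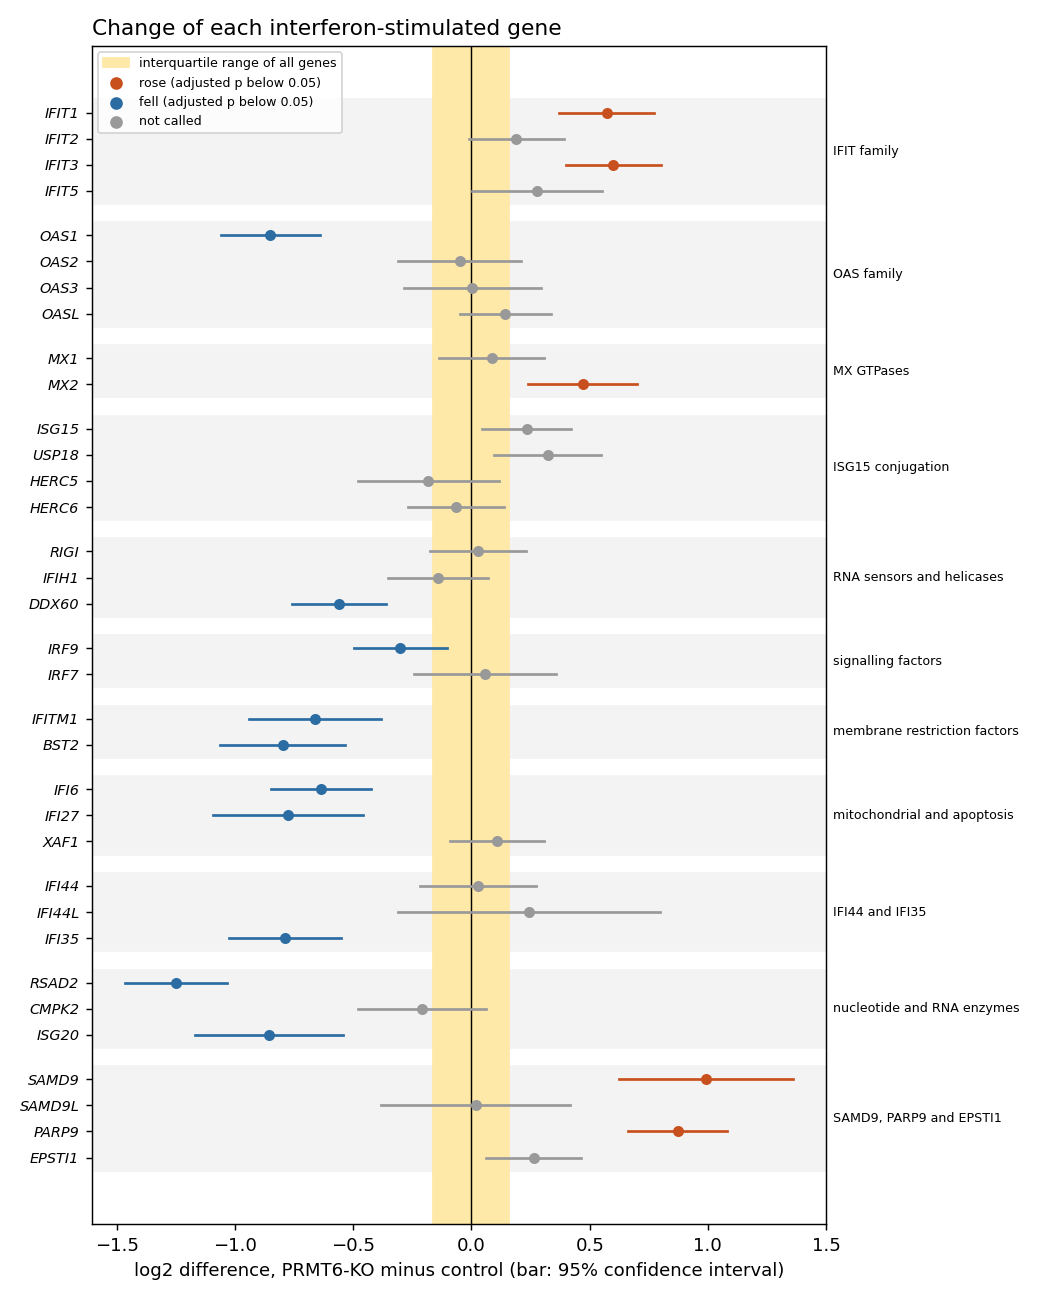
Log2 difference of each member, PRMT6-KO minus control, with its 95% confidence interval from limma, in the same order. The shaded band is the interquartile range of all 19775 genes, and all 15 coloured members lie outside it.

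The targeted gene was read first. The log2 intensity of PRMT6 was 7.79 and 7.63 on the PRMT6-KO arrays, against 8.03 and 8.11 on the control arrays. The transcript was 1.28-fold lower (log2 difference -0.36, SE 0.09, adjusted p = 0.043), and it did not pass when any 1 of the arrays was omitted. Editing of a coding sequence need not lower the transcript, so this is a weak check of the labels. Of 9 epithelial markers, not all particular to the stomach, EPCAM, KRT8, KRT18 and KRT19 read between 11.76 and 13.30 on all 4 arrays. TFF1 fell by 3.37, while CDX2, KRT19, GATA4, KRT8 and GATA6 rose by 0.38 to 1.00. Among 10 leukocyte markers 1 passed the test (LCP1, -0.37), and the summed linear intensity was 2677 to 5417 in PRMT6-KO arrays and 7185 to 7734 in control arrays, most of it from LYZ, which gastric epithelium also makes. PTPRC, which marks all leukocytes, read 3.42 and 3.03 in PRMT6-KO cells and 2.63 and 2.84 in control cells. Among 8 fibroblast markers COL1A1, LUM, COL3A1 and FAP rose (by 1.56, 1.37, 1.02 and 0.36), with a summed linear intensity of 1240 to 1301 in PRMT6-KO arrays and 510 to 528 in control arrays. LUM, COL3A1 and FAP averaged below the lower quartile of all genes, 4.12, in both groups, each lost its call without at least 1 array, and gene-specific probe sets gave 0.07 for LUM and 0.18 for COL3A1 without a call. The part of these shifts in the results below was not tested.

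The IFIT proteins bind viral RNA and block its translation, and their genes lie together on chromosome 10 in the order IFIT2, IFIT3, IFIT1B, IFIT1 and IFIT5. All 4 IFIT members had both PRMT6-KO arrays above both control arrays, as had 29.1% of all genes. Of the 4 members, 2 passed the test, where 12.4% of all genes were called higher. IFIT3 read 9.24 and 9.15 in PRMT6-KO cells, against 8.58 and 8.61 in control cells. It rose by 0.60 on the log2 scale (SE 0.08, adjusted p = 0.0063), or 1.52-fold, and its second probe set rose by 0.53. IFIT1 read 9.65 and 9.69 in PRMT6-KO cells and 9.05 and 9.14 in control cells, a rise of 0.57 (SE 0.08, adjusted p = 0.0073).

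The gaps between groups were smaller for the outer genes of the cluster. IFIT2 read 8.96 and 8.87 in PRMT6-KO cells, against 8.71 and 8.74 in control cells, and did not pass the test (difference 0.19, 95% confidence interval -0.01 to 0.39). IFIT5 read 7.02 and 6.96 in PRMT6-KO cells, against 6.84 and 6.58 in control cells, a difference of 0.28 (adjusted p = 0.14), and its other probe set gave -0.16. With either PRMT6-KO array left out, IFIT1 and IFIT3 kept their values (0.55 to 0.65) but not their calls, with a highest adjusted p of 0.092.

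When bound to viral double-stranded RNA, the OAS enzymes make short oligoadenylates, which activate RNase L, and OASL is a relative that lacks this activity. The genes of the family did not share a direction. OAS1 read 8.08 and 8.11 in PRMT6-KO cells, against 9.00 and 8.89 in control cells. It was 1.80-fold lower (difference -0.85, SE 0.08, adjusted p = 0.0028), and its second probe set, the dimmer one, fell by 0.98.

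Its neighbours on chromosome 12, OAS3 and OAS2, had overlapping groups. OAS3 read 8.37 and 8.34 in PRMT6-KO cells, against 8.49 and 8.21 in control cells, a difference of 0.00 (95% confidence interval -0.28 to 0.29). A dimmer OAS3 probe set gave another picture, with 6.05 and 5.86 in PRMT6-KO cells against 5.39 and 5.34 in control cells, a rise of 0.59 (adjusted p = 0.026 over all probe sets). Which of the OAS3 probe sets reads the transcript better was not tested. OAS2 differed by -0.05 and OASL by 0.14, neither past the test.

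The MX proteins are dynamin-like GTPases that trap viral nucleoproteins and capsids, encoded side by side on chromosome 21. MX2 read 5.95 and 5.82 in PRMT6-KO cells, against 5.48 and 5.35 in control cells, and rose by 0.47 (SE 0.09, adjusted p = 0.020). MX1, dim on every array, read 4.42 and 4.29 in PRMT6-KO cells, against 4.31 and 4.23 in control cells, with overlapping groups and a difference of 0.08. The MX2 call was lost with any 1 of the 4 arrays left out (adjusted p 0.057 to 0.15) and when reference genes were used to scale the arrays (0.23, adjusted p = 0.097).

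ISG15 is a ubiquitin-like protein that is attached to other proteins, HERC5 is its ligase in human cells, HERC6 serves as the ligase in mouse, and USP18 removes ISG15 and also damps the interferon receptor. No gene of this group passed the test. ISG15 read 10.86 and 10.87 in PRMT6-KO cells, against 10.64 and 10.62 in control cells, and the groups did not overlap (difference 0.23, 95% confidence interval 0.05 to 0.42, adjusted p = 0.081). USP18 read 7.36 and 7.44 in PRMT6-KO cells, against 7.15 and 7.00 in control cells, also without overlap (difference 0.32, interval 0.10 to 0.55, adjusted p = 0.056). These intervals lie above 0 gene by gene, yet neither passed after adjustment over all genes. HERC5 and HERC6 read between 2.98 and 3.33 on every array, below the lower quartile of all genes at 4.12, where it is not known whether a signal exceeds background.

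RIGI and IFIH1 are the cytosolic helicases that detect viral RNA, and DDX60 is a helicase reported to aid them. DDX60 read 7.96 and 7.99 in PRMT6-KO cells, against 8.50 and 8.58 in control cells, and fell by 0.56 (SE 0.08, adjusted p = 0.0072). In the platform's naming, the only DDX60 probe set may also bind other transcripts. IFIH1 differed by -0.14 and did not pass the test. RIGI, by its brightest probe set, read 7.65 and 7.56 in PRMT6-KO cells, against 7.60 and 7.55 in control cells, a difference of 0.03.

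That RIGI probe set is of the type that, in the platform's naming, may also bind other transcripts. A RIGI probe set of nearly equal brightness read 7.63 and 7.64 in PRMT6-KO cells, against 7.16 and 7.07 in control cells. It rose by 0.52 (adjusted p = 0.024 over all probe sets), but its name likewise marks it as possibly shared with other transcripts. The third, the one designed for this gene alone, differed by 0.26 without passing, and the mean of the RIGI probe sets gave 0.27 (adjusted p = 0.072).

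The signalling factors changed little. IRF9, the DNA-binding subunit of ISGF3, read 8.86 and 8.81 in PRMT6-KO cells, against 9.11 and 9.16 in control cells. It fell by 0.30 (SE 0.08, adjusted p = 0.045), or 1.23-fold, the call nearest the threshold among members. It did not pass without any 1 of the arrays (adjusted p 0.098 to 0.23) and with the replicate number as a block (adjusted p = 0.086). IRF7, which amplifies interferon production, read 7.73 and 7.81 in PRMT6-KO cells, against 7.85 and 7.56 in control cells, with overlapping groups.

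Both membrane factors fell. IFITM1, which hinders fusion of incoming viruses, read 10.89 and 10.63 in PRMT6-KO cells, against 11.45 and 11.40 in control cells, and was 1.58-fold lower (difference -0.66, SE 0.11, adjusted p = 0.012). BST2, or tetherin, which holds budding virus particles at the surface, read 5.73 and 5.95 in PRMT6-KO cells, against 6.69 and 6.59 in control cells. It fell by 0.80 (SE 0.10, adjusted p = 0.0061). The relatives IFITM3 and IFITM2, which are not members, fell by 0.90 and 0.74, and the IFITM genes are similar enough in sequence that probe sets may read more than one of them.

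IFI6 and IFI27 encode small proteins found in mitochondria and other membranes, and XAF1 is a promoter of apoptosis. IFI6 read 10.05 and 9.96 in PRMT6-KO cells, against 10.68 and 10.60 in control cells, and fell by 0.64 (SE 0.08, adjusted p = 0.0061). IFI27 read 7.62 and 7.51 in PRMT6-KO cells, against 8.50 and 8.19 in control cells, and fell by 0.78 (SE 0.13, adjusted p = 0.011). Neither had any overlap between groups. XAF1 stayed between 3.53 and 3.69 on all arrays.

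IFI35, which pairs with NMI, read 5.41 and 5.54 in PRMT6-KO cells, against 6.20 and 6.33 in control cells. It was 1.73-fold lower (difference -0.79, SE 0.09, adjusted p = 0.0046). The name of the only IFI35 probe set marks it as possibly shared with other transcripts. NMI, the partner of IFI35 and not a member, rose by 0.38. IFI44 and IFI44L, neighbours on chromosome 1, had overlapping groups and differed by 0.03 and 0.24. The IFI44L value rested on 1 array, at 3.44 in one PRMT6-KO array beside 2.83 in the other and 2.76 and 3.02 in control cells.

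RSAD2, or viperin, makes a chain-terminating nucleotide, and CMPK2 is a nucleotide kinase encoded next to it on chromosome 2. RSAD2 read 5.41 and 5.39 in PRMT6-KO cells, against 6.72 and 6.58 in control cells. It fell by 1.25 (SE 0.08, interval -1.46 to -1.03, adjusted p = 0.0011), the largest change of any member in this fit, and its second probe set fell by 1.06. RSAD2 was also the one called member whose call held in all 11 alternative analyses, with values from -1.49 to -1.15.

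CMPK2 read 5.48 and 5.66 in PRMT6-KO cells, against 5.86 and 5.69 in control cells, without overlap but also without a call (difference -0.21, 95% confidence interval -0.48 to 0.06). The intervals of the neighbours do not meet, although the difference between their changes was not itself tested. ISG20, an RNA exonuclease, read 7.15 and 7.27 in PRMT6-KO cells, against 8.22 and 7.92 in control cells, and fell by 0.86 (SE 0.12, adjusted p = 0.0080). Its second probe set gave -0.85.

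SAMD9 and SAMD9L are paralogs side by side on chromosome 7 that restrain cell growth and poxvirus replication. SAMD9 read 6.21 and 6.54 in PRMT6-KO cells, against 5.51 and 5.26 in control cells. It rose by 0.99 (SE 0.14, adjusted p = 0.0082), the largest rise among members, and its second probe set rose by 0.77. SAMD9L read 3.66 and 4.03 in PRMT6-KO cells, against 3.96 and 3.70 in control cells, with overlapping groups, a difference of 0.02 and an interval of -0.38 to 0.42. All 3 probe sets of SAMD9L were dim, and none passed the test.

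PARP9 is an ADP-ribosyltransferase that works in a complex with the ubiquitin ligase DTX3L. PARP9 read 7.96 on both PRMT6-KO arrays, against 7.15 and 7.03 on the control arrays, and rose by 0.87 (SE 0.08, adjusted p = 0.0026). DTX3L, not a member, read 9.02 and 9.07 in PRMT6-KO cells, against 8.36 and 8.25 in control cells, and rose by 0.74 (SE 0.08, adjusted p = 0.0039). The stretch of chromosome 3 printed above holds an annotated start of DTX3L and lies just before one of PARP9. PARP14, farther along the same chromosome with PARP15 between, differed by 0.12 and did not pass. The name of the PARP9 probe set marks it as possibly shared with other transcripts, and the dimmer one designed for this gene alone gave 0.36 (adjusted p = 0.11) and did not pass.

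EPSTI1, first described in breast epithelium next to stroma, read 9.01 and 8.98 in PRMT6-KO cells, against 8.78 and 8.69 in control cells, without overlap (difference 0.26, adjusted p = 0.072). A dimmer EPSTI1 probe set read 6.33 and 6.37 in PRMT6-KO cells, against 5.63 and 5.59, a rise of 0.74 (adjusted p = 0.0095 over all probe sets). With the mean of the EPSTI1 probe sets the gene was called higher (0.50, adjusted p = 0.0059).

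The 34 members had 57 probe sets in all, and 18 members had several. Adjusted over all 54613 probe sets, 10 of the 57 rose and 12 fell, beside 6.68% and 6.38% of all probe sets, and in 0 members were probe sets called in opposite directions. In OAS3, RIGI and EPSTI1 a dimmer probe set rose where the brightest did not pass. The 5 members below the lower quartile of all genes (HERC5, HERC6, IFI44L, SAMD9L and XAF1) had 0 calls, where 3.52% of all genes at such levels were called. The 22 members at or above the median gene had 12, where 40.9% of all genes were called.

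**Figure D3:**
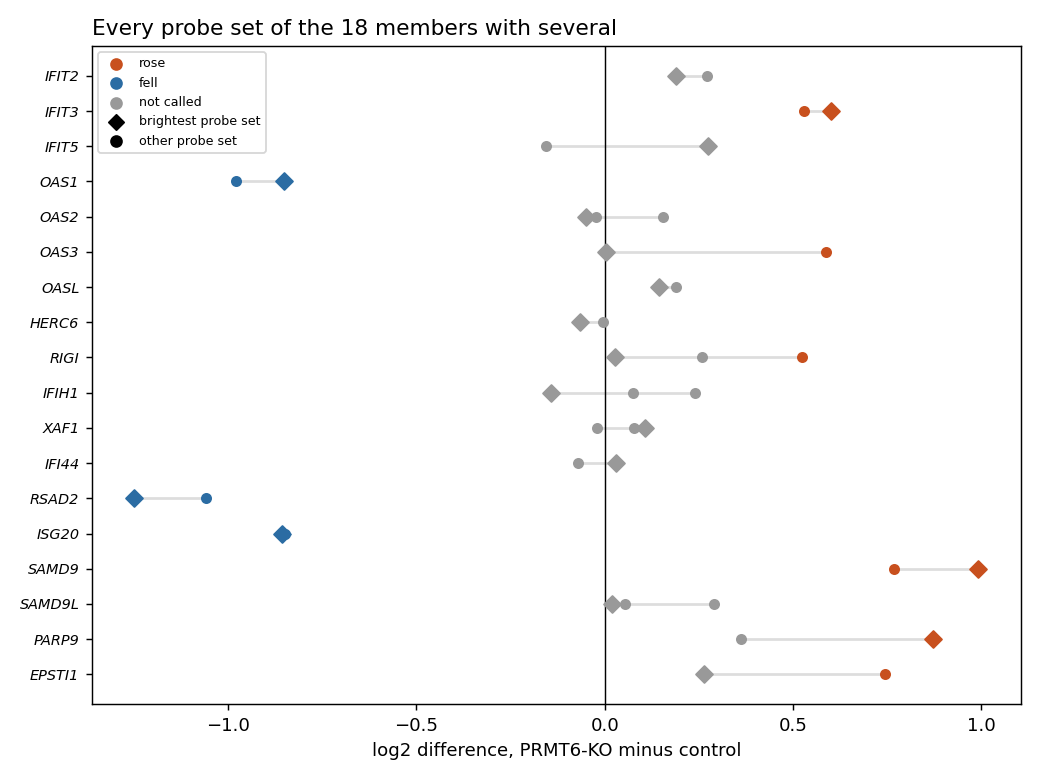
Log2 difference, PRMT6-KO minus control, of every probe set of the 18 members with several, coloured by the test over all probe sets, with diamonds for the brightest. The probe sets of RSAD2, ISG20 and OAS1 lie together below 0, those of SAMD9 and IFIT3 above 0, and those of OAS3, RIGI, EPSTI1 and PARP9 lie apart.

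**Figure D4:**
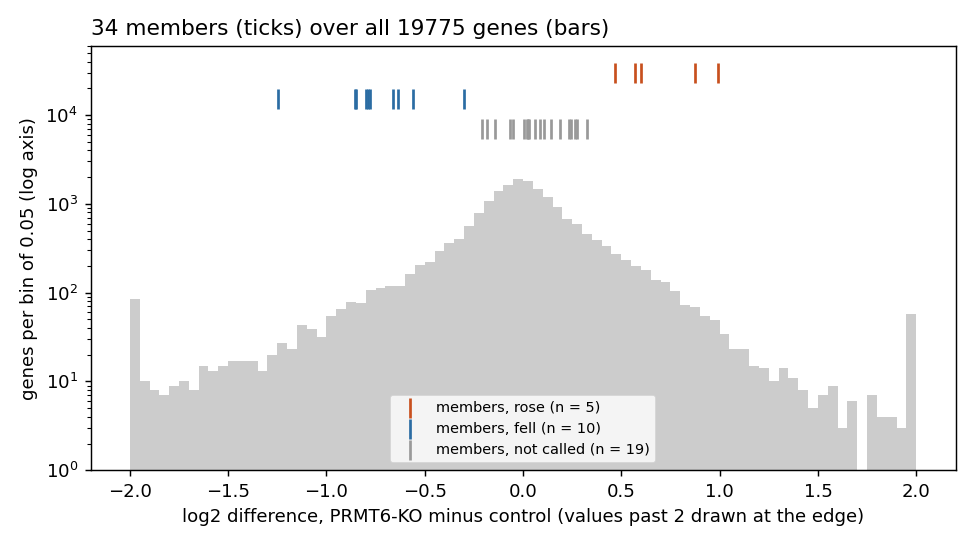
Distribution of the log2 difference over all 19775 genes (bars, log axis) with the 34 members as ticks: 5 that rose, 10 that fell and 19 without a call. The ticks run from -1.25 to 0.99, on both sides of 0 and within the range of all genes.

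The pathway above the members was read from separate lists. Among 9 interferon genes, IFNB1 (4.05 and 4.28 in PRMT6-KO cells, against 3.36 and 3.52 in control cells) and IFNL2 (4.79 and 5.08 in PRMT6-KO cells, against 4.19 and 4.29 in control cells) rose, by 0.72 (SE 0.11, adjusted p = 0.010) and 0.69 (SE 0.12, adjusted p = 0.014). The IFNL2 probe set may also read near-identical relatives. These levels lie close to the lower quartile of all genes, 4.12, so it is not known whether they exceed background. The 2 that rose were 22.2% of the 9 genes, beside 12.4% of all genes. Without any 1 of the arrays, neither IFNB1 nor IFNL2 passed. None of the 6 receptor chains passed the test by its brightest probe set, with 0 at an unadjusted p below 0.05 as well, and differences ran from -0.15 to 0.21. For IFNGR1, a chain of the interferon gamma receptor, the probe set designed for that gene alone gave a rise of 1.78 (adjusted p = 0.0044), against 0.21 for the brightest.

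JAK1, the kinase bound to all interferon receptors, read 9.28 and 9.21 in PRMT6-KO cells, against 10.15 and 10.04 in control cells. It fell by 0.85 (SE 0.08, adjusted p = 0.0028). JAK2, which serves the interferon gamma receptor, fell by 0.44, and STAT3, which transmits cytokine signals, rose by 0.45. These were the 3 calls among 8 genes of JAK-STAT and IRF signalling (37.5%, beside 24.0% of all genes).

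Among 12 genes of nucleic acid sensing, the ubiquitin ligase TRIM25, an activator of RIGI, fell by 0.95 (SE 0.11, adjusted p = 0.0042). The adaptor TICAM1 fell by 0.48 and the DNA sensor CGAS by 0.37, while the RNA-dependent kinase EIF2AK2 rose by 0.50. By the probe set designed for it alone, CGAS gave -0.04 and did not pass. Among 8 negative regulators, SOCS1 fell by 0.44 and the phosphatase PTPN2 by 0.39, and both calls were lost with the mean of their probe sets (-0.11 and 0.00).

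Of 34 other targets of type I interferon, 9 fell (26.5%) and 4 rose (11.8%), beside 11.5% and 12.4% of all genes. LAMP3, a lysosomal membrane protein, was 17.3-fold lower, SLFN5 was 5.09-fold lower and the DNA-binding protein IFI16 was 4.94-fold lower. IFI16 read 3.54 and 3.83 in PRMT6-KO cells, against 6.06 and 5.93 in control cells, so its knockout level may not exceed background. The 4 that rose were DTX3L, PNPT1 (0.43), NMI (0.38) and SP110 (0.35).

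Among 15 targets of interferon gamma, 6 rose (40%) and 2 fell (13.3%), beside 12.4% and 11.5% of all genes. GBP1, a guanylate-binding protein, read 6.49 and 6.58 in PRMT6-KO cells, against 3.96 and 4.01 in control cells, and rose by 2.55 (SE 0.08, adjusted p = 0.00023), or 1.22 by the mean of its probe sets. Both GBP1 control values lie below the lower quartile of all genes and may not exceed background, so the size of its rise is uncertain. The chemokine CXCL10 rose by 1.69 (SE 0.08, adjusted p = 0.00053). WARS1, the tryptophanyl-tRNA synthetase, fell by 2.13 and the transcription factor IRF8 by 1.08. GBP2, GBP4 and GBP5, relatives of GBP1, read between 2.81 and 3.56 on every array and did not pass. GBP3, a brighter relative, read 7.87 and 8.02 in PRMT6-KO cells, against 8.20 and 8.15 in control cells. Its groups did not overlap, and its difference of -0.23 did not pass. Over these 7 lists together, 14 of 92 measured genes rose and 18 fell, with a median of 0.04. That is 15.2% and 19.6%, beside 12.4% and 11.5% of all genes. LAMP3, SLFN5, IFI16, GBP1, CXCL10 and WARS1 kept their calls with any 1 array omitted. DTX3L, JAK1, JAK2, STAT3, TRIM25, TICAM1, CGAS, EIF2AK2, SOCS1, PTPN2, IFITM3 and IRF8 each lost theirs without at least 1 array, and scaling by reference genes also ended the calls of STAT3 and EIF2AK2.

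**Figure D5:**
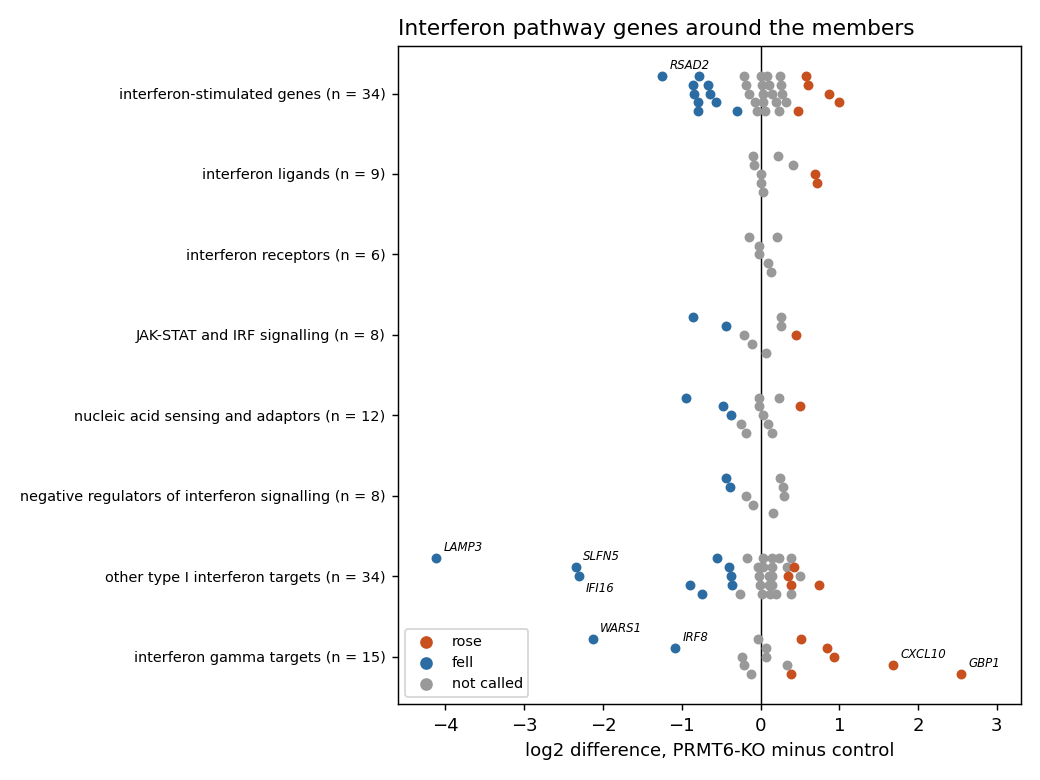
Log2 difference, PRMT6-KO minus control, of each measured gene of the member list and of the 7 other interferon lists, 1 point a gene, coloured by the test over all genes. Names are given where the change is past about 1, and the points of most lists lie on both sides of 0.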

How the data were processed

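The authors deposited log2 intensities of 54613 probe sets on 4 arrays. Per the submitters' processing notes, RMA in affy made them (no version is given), and the range of the values shows the log2 scale. RMA corrects background, equalizes the arrays' distributions and compresses differences of dim probe sets. Detection calls were not used here. Precision is limited by the number of arrays.

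Probe sets were named through the platform annotation (41091 with 1 gene symbol, 1801 with several, 11721 with none), of which 41037 matched RefSeq gene numbers. Each of 19775 genes took its probe set with the highest mean. The test of PRMT6-KO against control used limma 3.58.1 under R 4.3.3 (lmFit and eBayes with a constant prior and no covariates), with Benjamini-Hochberg adjustment over all genes. Each gene had 2 residual degrees of freedom, and the prior added 3.27. The fit was tested on simulated data. The members, lists and tests were chosen with earlier results of these data known. All members are named. In each other list up to 4 called genes with the largest change are named, or 2 where none was called. NMI, PNPT1, SP110, IFITM2, KRT8, GATA6, PTPRC, LYZ, KRT18, EPCAM, GBP2, GBP3, GBP4 and GBP5 were named after their values were seen. Alternatives are given in the closing section.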

Additional observations from a re-analysis of the deposited data

How the results depend on the processing

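With 2 arrays a group, the calls rest on all 4. Of the 15 called members, 11 kept their call without control 1 and 11 without control 2, but 1 (RSAD2) without either PRMT6-KO array, where the lone array is assumed to vary like the controls; 0 turned sign. With single arrays left out, the members that rose numbered 0 to 4 and those that fell 1 to 8, their median was -0.077 to 0.11, all genes that rose numbered 154 to 1371 and fell 354 to 1258, and the other lists had 2 to 7 rises and 4 to 9 falls. PRMT6 was -0.44 to -0.28.

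Arrays set to equal means of 8 reference genes moved the median of all genes to -0.25 and that of the members to -0.22. Then 1281 genes rose and 6850 fell (rises were 15.8% of calls, against 51.9%), the other lists had 7 rises and 31 falls, MX2 lost its call, and IFIH1, HERC5, HERC6 and CMPK2 were called lower. Uncalled genes that turned sign there were IFI44 (-0.21), IFIT2 (-0.051), ISG15 (-0.0066), MX1 (-0.16), OAS3 (-0.24), OASL (-0.10), IRF7 (-0.18), RIGI (-0.21), SAMD9L (-0.22), XAF1 (-0.13), PARP14 (-0.12) and IFNGR1 (-0.036). With gene-specific probe sets 1616 genes rose, and 6 of 28 measured members fell. Of the called members, 12 had such a probe set and 10 kept their call, while IRF9 and PARP9 lost theirs. IFI35, IFITM1 and DDX60, which fell in the main fit, had none. In that setting IFI44 was -0.071, IFNLR1 was 0.073 and PRMT6 lost its call (-0.36, adjusted p = 0.057). Averaging the probe sets of a gene gave IFI44 -0.021, IFIH1 0.059, OAS2 0.027 and PTPN2 0.0041. An intensity trend called 8 members higher, adding ISG15, USP18 and EPSTI1. Adjustment over all probe sets left 9 rises in the other lists and no PRMT6 call (adjusted p = 0.085).

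Uncalled genes whose sign turned with single arrays left out were IFI44 (-0.072 to 0.13), IFI44L (-0.062 to 0.55), OAS2 (-0.14 to 0.040), OAS3 (-0.14 to 0.14), IRF7 (-0.086 to 0.20), RIGI (-0.018 to 0.073), SAMD9L (-0.17 to 0.20) and IFNLR1 (-0.35 to 0.047). The arrays share only a number between groups: the difference between arrays 1 and 2 of the controls correlated at 0.23 with that of the PRMT6-KO arrays across probe sets. With the replicate number as a block, 2035 genes rose and 1937 fell, 5 members rose and 9 fell, and IRF9 and PRMT6 (-0.36, adjusted p = 0.076) lost their calls. The cause of these shifts was not tested.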
